A study of Mus musculus with 2 samples.

Results

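Gene deserts were defined as bins of 100 kb, laid without overlap along the 19 mouse autosomes of mm10 from position 0, that started beyond 3.1 Mb and lay more than 250 kb from every annotated transcription start site (TSS) of a protein-coding transcript. Of 24012 bins that started beyond 3.1 Mb, 4376 met this rule, which was 18.2% of the bins and 437.6 Mb of sequence. The rule used positions only and no measured value. Gene deserts are long stretches without protein-coding genes. They are in general rich in A and T, replicate late and lie mostly in compact chromatin at the nuclear lamina, and some hold enhancers that act over long distances on the genes at their edges. The desert beyond Myc, which encodes a growth-promoting transcription factor, is known for enhancers of this kind in blood cells.

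Accessibility was read by single-cell ATAC-seq, in which a transposase cuts open DNA and each pair of cuts gives 1 fragment that carries the barcode of its cell. There was 1 library of young hematopoietic stem cells (HSCs) from C57BL/6 mice 10 weeks old and 1 library of aged HSCs from C57BL/6 mice 20 months old, with no treatment named for either and both sorted from bone marrow by the absence of IL-7, Lin, CD34, CD48 and Flt3 and the presence of Sca-1, c-kit and CD150, as the labels name these markers. How many mice stood behind each library was not given in the sources used here. With 1 library per age the spread between animals is unknown and age cannot be told apart from the library, so no test between ages was made, and every interval below is a 95% interval that covers counting error, or the spread over bins or cells, and nothing else. Fragments of 1 cell are also not fully independent, so the counting intervals are too narrow. At an equal depth per cell, the variance over cells of the desert fragments was 5.55 times their mean in young HSCs. In aged HSCs it was 5.88 times the mean. Counting error alone would make variance and mean about equal, so intervals of sums over many bins are clearly too narrow.

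Barcodes called as cells with 3000 to 20000 fragments in the authors' peaks were kept, 4887 in young and 3405 in aged HSCs, with 26 barcodes present in both. The kept cells held 49049364 young and 37843997 aged autosomal fragments, with a median of 9890 and 11020 fragments per cell. In the aged library 80.1% of the fragments of these cells lay in peaks against 82.1% in the young library, and 55.1% against 59.9% were shorter than a nucleosome. In-peak counts were those deposited with each library, and the paper describes joining the peaks of both ages as a later step. The peaks counted may thus differ between the libraries. Of the promoters (1 kb on either side of the TSS) of 8 HSC marker genes, 4 in young and 5 in aged HSCs were above the median of all protein-coding promoters. Mecom, a defining regulator of HSCs, was near the floor at its annotated TSS with 0.326 and 0.317 fragments per 1000000 autosomal fragments (FPM). The promoters of the T, B, granulocyte, monocyte and erythroid marker genes all lay below that median in both libraries. The promoters of both megakaryocyte markers lay above it, and of 4 genes whose products were sorted against, 2 in young and 1 in aged HSCs did.

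Most desert bins were sparsely covered. A median bin held 156 young and 160 aged fragments, and a median of 3.01% of young and 4.35% of aged cells had any fragment in a given bin. At these counts the ratio of a single bin has an interval that reaches from 1.06 to 1.67 around 1.33, so single bins are described by their counts below and firm values come from sums over many bins. Of the 4376 bins, 4364 held at least 20 fragments in both libraries together and were compared one by one. The other 12 held at most 19 fragments, 1 of them none, and they were left in all sums.

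Within the deserts, accessible elements were windows of 300 bp whose level of cut sites (fragment ends), averaged over the ages, peaked at 1 or more per 1000000 autosomal cut sites (CPM). There were 1986 of them in 910 of the 4376 bins, at most 14 in a bin. The following 8 are shown because they carry the extremes described further down: the 3 of highest level, the 1 with the highest ratio of aged to young, the leading element of the desert bin with the highest such ratio, 1 within a region that the study had listed as opening with age, and the 2 among the lowest ratios that had the lowest ratio and the most cut sites. Sequences are the plus strand of GRCm38 (mm10), and capitals mark matches, on either strand, to the 11 motifs whose letters are given with the motif shares. In the order shown, the first 7 hold letters of C/EBP, of GATA and ISRE, of GATA and RUNX, of C/EBP and GATA, of GATA, of RUNX and of none, and the last holds those of C/EBP, CTCF and RUNX.
Element between Celf2 and Gata3, chr2:9593951-9594250: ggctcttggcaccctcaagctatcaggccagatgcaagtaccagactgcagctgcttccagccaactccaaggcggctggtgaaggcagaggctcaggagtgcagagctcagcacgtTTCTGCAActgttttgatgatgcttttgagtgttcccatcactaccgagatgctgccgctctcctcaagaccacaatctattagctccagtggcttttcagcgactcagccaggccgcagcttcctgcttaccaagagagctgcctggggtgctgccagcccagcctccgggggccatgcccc
Element between Akr1e1 and Klf6, chr13:5592551-5592850: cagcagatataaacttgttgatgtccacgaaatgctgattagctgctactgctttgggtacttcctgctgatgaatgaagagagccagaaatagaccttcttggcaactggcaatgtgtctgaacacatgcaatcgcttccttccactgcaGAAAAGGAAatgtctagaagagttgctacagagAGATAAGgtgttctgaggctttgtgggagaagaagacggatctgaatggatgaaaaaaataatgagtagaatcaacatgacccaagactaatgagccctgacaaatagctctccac
Element between Nxph1 and Ndufa4, chr6:11594001-11594300: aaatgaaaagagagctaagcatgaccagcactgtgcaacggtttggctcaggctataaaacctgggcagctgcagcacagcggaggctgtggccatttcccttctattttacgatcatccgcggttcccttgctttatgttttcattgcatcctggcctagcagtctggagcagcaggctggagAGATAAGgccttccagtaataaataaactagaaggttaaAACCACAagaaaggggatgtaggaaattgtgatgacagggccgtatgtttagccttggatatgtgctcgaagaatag
Element between Tmem132b and Tmem132c, chr5:126402901-126403200: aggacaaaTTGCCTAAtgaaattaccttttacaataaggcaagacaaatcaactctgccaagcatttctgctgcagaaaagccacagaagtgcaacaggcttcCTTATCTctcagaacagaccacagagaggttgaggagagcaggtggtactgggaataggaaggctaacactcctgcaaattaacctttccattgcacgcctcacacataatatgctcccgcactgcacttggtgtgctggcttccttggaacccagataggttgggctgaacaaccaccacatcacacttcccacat
Element between Mctp2 and Rgma, chr7:72728951-72729250: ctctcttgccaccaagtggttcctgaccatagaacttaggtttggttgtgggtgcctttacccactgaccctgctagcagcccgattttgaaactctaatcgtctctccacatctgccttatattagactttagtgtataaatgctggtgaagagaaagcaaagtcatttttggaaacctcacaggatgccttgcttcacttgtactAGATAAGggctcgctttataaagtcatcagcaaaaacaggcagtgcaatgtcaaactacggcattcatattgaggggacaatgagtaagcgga
Element between Dsel and Cntnap5a, chr1:114039451-114039750: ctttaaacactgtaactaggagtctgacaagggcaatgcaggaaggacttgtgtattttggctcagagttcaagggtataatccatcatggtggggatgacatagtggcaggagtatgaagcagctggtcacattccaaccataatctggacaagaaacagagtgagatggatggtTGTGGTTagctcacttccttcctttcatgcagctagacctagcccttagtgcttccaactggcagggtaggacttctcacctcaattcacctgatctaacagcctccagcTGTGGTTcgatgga
Element between Gm11361 and Sox4, chr13:28616701-28617000: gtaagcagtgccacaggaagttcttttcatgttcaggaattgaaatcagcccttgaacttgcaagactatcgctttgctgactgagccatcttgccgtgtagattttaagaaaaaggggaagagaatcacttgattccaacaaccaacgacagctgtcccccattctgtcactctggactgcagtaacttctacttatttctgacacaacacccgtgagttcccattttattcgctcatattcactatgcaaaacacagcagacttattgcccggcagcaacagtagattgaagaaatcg
Element at Trav11n, chr14:53134851-53135150: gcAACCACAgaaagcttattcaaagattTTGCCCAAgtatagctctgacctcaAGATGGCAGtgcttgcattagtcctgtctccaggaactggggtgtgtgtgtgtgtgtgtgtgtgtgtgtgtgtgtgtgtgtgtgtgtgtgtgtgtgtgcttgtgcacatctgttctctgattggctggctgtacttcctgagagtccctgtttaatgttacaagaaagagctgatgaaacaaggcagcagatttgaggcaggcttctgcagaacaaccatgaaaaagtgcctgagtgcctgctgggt

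The first question was whether gene deserts took a larger part of all accessibility in aged HSCs. Desert bins held 1186950 young and 1137382 aged fragments, which was 2.42% of the autosomal fragments of the young and 3.01% of those of the aged library. The share in the aged library was thus 1.242 times that in the young library (1.239 to 1.245). Such shares are relative: the remaining bins that started beyond 3.1 Mb, 19636 in number, held 97.5% of the young and 96.9% of the aged fragments, a ratio of 0.994. The ratio of the deserts was above 1 on each of the 19 autosomes, from 1.11 on chromosome 19 (65 desert bins) to 1.35 on chromosome 5 (235 desert bins).

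The ratio was higher the farther a bin lay from a protein-coding TSS, while the level was lower. Bins that contained a protein-coding TSS had a mean of 70.9 young and 69.3 aged FPM, a ratio of 0.977. At up to 50 kb from a TSS the means were 26.4 and 27.7, a ratio of 1.05, and at 50 to 250 kb they were 16.0 and 17.8, a ratio of 1.11. Within the deserts, bins at 250 to 500 kb had means of 6.87 and 8.38 FPM and a ratio of 1.219 (1.215 to 1.223). Bins at 500 to 1000 kb had 4.69 and 5.89 and a ratio of 1.256 (1.2497 to 1.262). The 687 bins over 1000 kb from any protein-coding TSS had 3.15 and 4.27 and a ratio of 1.36 (1.35 to 1.37). No step was seen at the limit itself: the 160 bins at 240 to 250 kb, just outside the rule, had a ratio of 1.21 and the 137 bins at 250 to 260 kb, just inside it, had a ratio of 1.22.

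Bins of low level elsewhere in the genome came close to the deserts. The desert bins were split into 4 classes of equal size by their mean level over the ages, with limits at 3.12, 3.69 and 6.16 FPM. From the lowest to the highest class the sums of the desert bins gave ratios of 1.31, 1.32, 1.36 and 1.17. Bins outside the deserts within the same limits gave 1.27, 1.29, 1.31 and 0.9899. In the lowest 3 classes the median log2 ratio of single bins was 0.40, 0.39 and 0.43 in the deserts and 0.35, 0.37 and 0.38 elsewhere. The highest class has no upper limit and does not compare like with like, since its mean was 13.01 young FPM in the deserts and 61.8 elsewhere. Thinly covered bins in general thus had a higher share in the aged library, and no difference that is particular to deserts was tested.

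**Figure D1:**
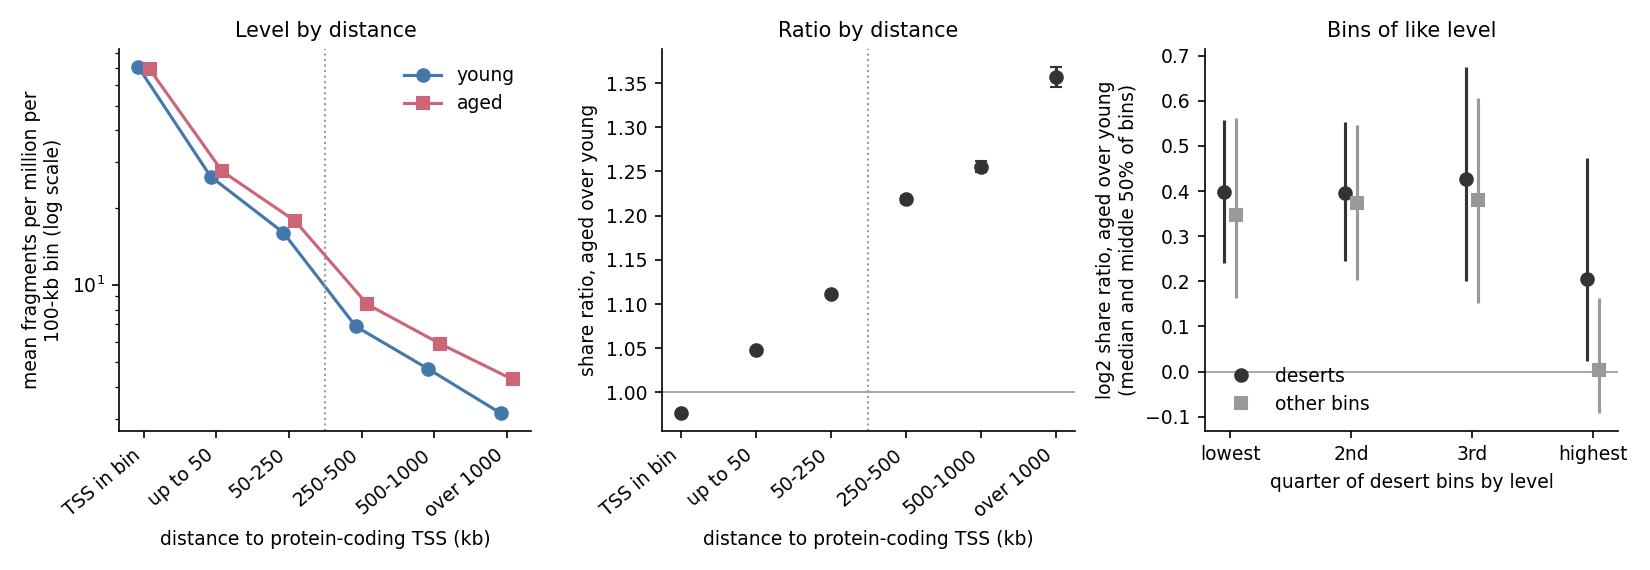
Left, mean FPM per 100-kb bin (log scale) by distance to the nearest protein-coding TSS in the young (circles) and aged (squares) library. Middle, ratio of the aged to the young share of each distance class with its 95% counting interval, rising from 0.977 to 1.36, with the dotted line at the 250 kb that bounds the deserts. Right, median (points) and middle 50% (lines) of the log2 ratio of single bins, for deserts and for other bins within the same limits of level, where the lowest 3 classes lie close together.

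Among single bins, the share was at least 25% higher in the aged library in 2472 of the 4364 desert bins compared (56.6%), against 28.1% of all 23831 bins compared. It was at least 20% lower in 42 desert bins (0.962%), against a background of 0.986%. With every cell thinned to 3000 fragments, which leaves fewer fragments per bin, 166 of 4348 desert bins were at least 20% lower, and the background was not computed on that scale. The log2 ratio was above 0 in 3897 desert bins (89.3%), against 64.1% of all bins compared. The interval of the bin itself lay wholly above a ratio of 1 in 2536 desert bins (58.1%, against 39.7% of all bins compared) and wholly below 1 in 96 (2.20%, against 19.1%). Bins of like level lay closer. In the lowest 3 classes of level 63.5%, 64.2% and 61.9% of desert bins were at least 25% higher, against 54.0%, 58.1% and 56.7% of bins elsewhere. Intervals lay wholly below 1 in 0.462%, 0.0913% and 1.65% of these desert bins, against 0.603%, 0.430% and 1.62% elsewhere. The median log2 ratio was 0.37 (0.36 to 0.37), with the middle 50% of bins from 0.17 to 0.57. Bins with equal fragment counts in both libraries all take 1 value, which comes from the difference in depth, and the median lay on that value. The standard deviation of the log2 ratio over desert bins was 0.34, and counting error alone would give 0.16.

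**Figure D2:**
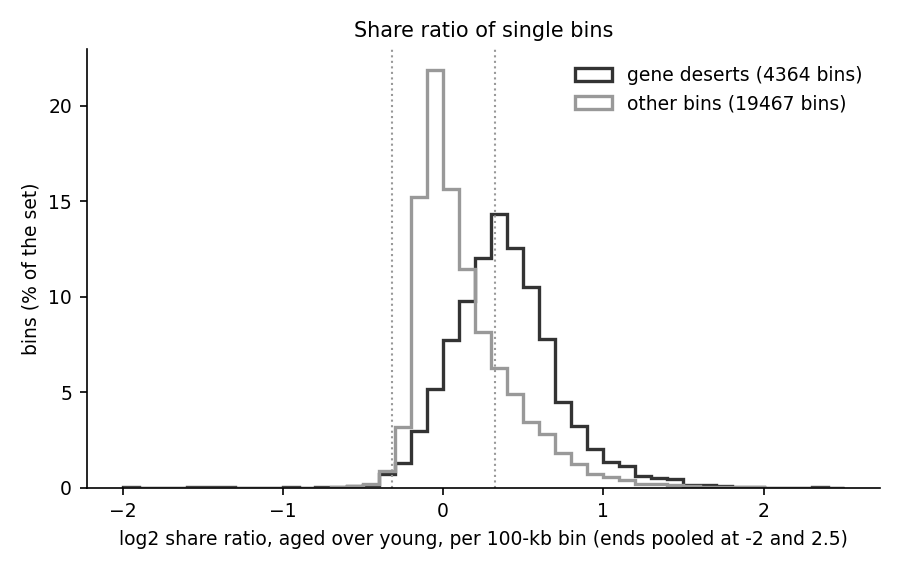
Distribution of the log2 ratio of the aged to the young share over single 100-kb bins, as the percentage of 4364 desert bins and of 19467 other bins, with dotted lines at shares 20% lower and 25% higher in the aged library. The desert bins peak near 0.37 and the other bins near 0.

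Sequence and annotation divided the deserts less than level did. A median desert bin had 37.8% G and C and 39.8% repeats (bases soft-masked in the reference), against 42.4% and 30.1% in the other bins. Split into 4 classes by G and C content, the desert bins poorest in them (up to 36.8%) had a ratio of 1.305 and those richest in them (over 39.2%) 1.19. The 2 classes between them had 1.28 and 1.26. Bins elsewhere within those limits of base composition had, from the poorest to the richest, ratios of 1.20, 1.16, 1.12 and 0.987. These do not compare bins of like level, since in the richest class, which has no upper limit, the mean was 9.11 young FPM in the deserts and 58.2 elsewhere, and 3.61 and 7.38 in the poorest. By repeat content 4 such classes ranged from 1.20 in the least repetitive to 1.301 in the most repetitive, which were also the classes of highest and lowest level (means of 9.32 and 3.43 young FPM). Over the 4364 bins the rank correlation of the log2 ratio was -0.42 with the young level, 0.093 with distance, -0.082 with G and C content and 0.021 with repeat content. These are descriptions over bins that share 2 libraries, and the young level also stands in the denominator of the ratio.

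Deserts inside giant genes had nearly the same ratio as deserts between genes. Of the desert bins 3903 lay outside every protein-coding gene body, with a ratio of 1.245 (1.241 to 1.248). In 419 bins at least 50% of the sequence lay in such a body, far from its TSS, and there the ratio was 1.22 (1.21 to 1.23). Parts of 127 genes contained whole desert bins, and the 3 with the most such bins are given here, named after the values were seen. Cntnap2, a neurexin relative, had 13 desert bins with means of 4.79 young and 6.67 aged FPM, a ratio of 1.39 (1.33 to 1.46). Ptprd, a receptor tyrosine phosphatase, had 13 with 4.27 and 6.04, a ratio of 1.42 (1.34 to 1.49). Csmd1, a regulator of complement, had 13 with 3.72 and 4.54, a ratio of 1.22 (1.15 to 1.29). Long noncoding RNA genes started in 620 of the desert bins, where the ratio was 1.18, against 1.26 in the 3756 deserts without one. Bins with such a start also had the higher level, with means of 8.11 against 5.10 young FPM.

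The 4376 bins formed 606 uninterrupted deserts, of which 107 were single bins and 138 were longer than 1 Mb. The 5 longest are given here. In the desert from Pcdh20 to Pcdh9, 2 protocadherin genes (chr14:88800001-93600000, 48 bins), there were 5474 young and 6804 aged fragments, a ratio of 1.61 (1.55 to 1.67), and 45 of its 48 bins were at least 25% higher. The desert from Olfm4 to the protocadherin gene Pcdh17 (chr14:80300001-84100000, 38 bins) held 4318 and 5151, a ratio of 1.55 (1.48 to 1.61), with 35 bins at least 25% higher. The desert from Cntnap5b to the cadherin gene Cdh20 (chr1:100400001-104500000, 41 bins) held 5737 and 5840, a ratio of 1.32 (1.27 to 1.37). The desert from Tenm3, a teneurin, to Aga (chr8:49100001-53200000, 41 bins) held 5732 and 5991, a ratio of 1.35 (1.31 to 1.40). The desert from Celf4 to Pik3c3 (chr18:26100001-30000000, 39 bins) held 7169 and 7035, a ratio of 1.27 (1.23 to 1.31). None of these 5 had a bin at least 20% lower. Of all desert bins compared 56.6% were at least 25% higher and 0.962% at least 20% lower. Of the 602 deserts with at least 200 fragments the ratio was above 1 in 548, its interval lay wholly above 1 in 474 and wholly below 1 in 25, and the median ratio was 1.28. Like stretches outside the deserts were not formed, so these counts are not shown to be particular to deserts. In the lowest 3 classes of level 94.0%, 94.6% and 90.3% of single desert bins had a log2 ratio above 0. Elsewhere 88.1%, 93.2% and 87.8% of such bins did.

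Deserts beside a list of transcription factor genes, most of them regulators of blood cells, mostly had lower ratios than the median desert. Of 18 genes in this list, 13 flanked at least 1 of 16 deserts (124 bins), with a median ratio of 1.08, and 14 of these 16 lay below the median desert ratio and 2 above it. The ratio was above 1 in 13 of the 16, with the interval wholly above 1 in 9 and wholly below 1 in 2. All 16 also had higher levels than the median desert bin, with means from 7.97 young FPM upward, which limits the comparison as above. The highest class of desert bins by level had a ratio of 1.17. The list was chosen with earlier results of these data known. Downstream of Myc, the desert to Gsdmc (chr15:62300001-63500000, 12 bins) held 4800 young and 4001 aged fragments, which gave a ratio of 1.08 (1.04 to 1.13), with 1 bin at least 25% higher and 1 at least 20% lower. The rule left out the 308.8 kb from its end to the Gsdmc TSS. Whether the known enhancers of Myc lie inside these bins was not examined. On the other side of Myc the desert from A1bg (chr15:61200001-61700000, 5 bins) held 2348 and 2431, a ratio of 1.34 (1.27 to 1.42).

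Others of this list ranged from lower to higher in the aged library. The desert from Zeb2, a repressor that HSC differentiation requires, to Acvr2a (chr2:45400001-48500000) held 12119 young and 10162 aged fragments, which gave a ratio of 1.09 (1.06 to 1.12). The desert beside Gata3, a regulator of T cell fate (chr2:7700001-9600000), held 9382 and 8412, a ratio of 1.16 (1.13 to 1.20). The desert beside Kcnj2 and Sox9 (chr11:111400001-112500000) held 7109 and 7225, a ratio of 1.32 (1.27 to 1.36), and Sox9, a regulator of cartilage, is in the list without being a blood gene. The desert beyond Bcl11a, a repressor of fetal globin (chr11:24400001-25500000), held 6662 and 5254, a ratio of 1.02 (0.986 to 1.06). The desert beside Tox, a factor of T cell development (chr4:7300001-7900000), held 6518 and 5501, a ratio of 1.09 (1.06 to 1.13). The 2 deserts with intervals below 1 were that from Pkn2 to Lmo4 (chr3:143200001-143900000), with 4215 and 2901 fragments and a ratio of 0.892 (0.851 to 0.935), and the single bin from Gm11361 to Sox4 (chr13:28600001-28700000), with 3128 and 2104 and a ratio of 0.872 (0.825 to 0.922).

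The 5 desert bins with the most fragments had 55.4 to 80.1 young FPM, against a mean of 70.9 in bins with a TSS. The densest lay 317.8 kb from Sox9 (chr11:113100001-113200000), with 3930 young and 3059 aged fragments and a ratio of 1.01 (0.962 to 1.06). The bin 273.9 kb from Runx1, a master regulator of blood formation (chr16:93100001-93200000), held 3112 and 3341, a ratio of 1.39 (1.32 to 1.46). The whole desert there (chr16:93100001-93300000, 2 bins) held 4790 and 4672, a ratio of 1.26 (1.21 to 1.32), and the other bin was not at least 25% higher. The bin beyond Trib2 (chr12:16100001-16200000) held 3079 and 2594, a ratio of 1.09 (1.04 to 1.15). In it the single highest window of 300 bp took 30.3% of the young and 22.1% of the aged cut sites, and without that window the ratio was 1.22. The remaining 2, between Kif2a and Smim15 (chr13:107600001-107700000) and between Cd83 and Jarid2 (chr13:44300001-44400000), had ratios of 1.24 (1.18 to 1.31) and 1.055 (0.999 to 1.11).

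The highest ratios of single bins with at least 200 fragments were not carried by single cells. Their choice by ratio makes these values a description. The highest lay between Mctp2 and Rgma, which encodes a repulsive guidance molecule (chr7:72700001-72800000), with 123 young and 471 aged fragments and a ratio of 4.96 (4.06 to 6.10). The element shown above took 37.8% of the aged and 9.31% of the young cut sites of that bin, and without it the ratio was 3.38. These fragments came from 118 young and 391 aged cells, with at most 16 from 1 cell. The bin between Cdh8 and Cdh11, 2 cadherin genes (chr8:100700001-100800000), held 118 and 348, a ratio of 3.82 (3.09 to 4.75), from 118 and 318 cells. The bin between Nr2f1 and Arrdc3 (chr13:79400001-79500000) held 179 and 524, a ratio of 3.79 (3.20 to 4.52). A single window of 300 bp took 44.0% of the aged and 21.01% of the young cut sites of this bin, and without it the ratio was 2.70. The bins between Pabpc4l and the protocadherin gene Pcdh18 (chr3:48600001-48700000) and inside the teneurin gene Tenm2 (chr11:36300001-36400000) had ratios of 3.76 and 3.71. Without their highest windows the ratios of the Cdh8, Pcdh18 and Tenm2 bins were 3.68, 3.38 and 3.28.

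The 2 lowest ratios of single bins lay at an antigen receptor locus. Variable segments of these receptors are annotated apart from protein-coding genes, so that loci of this kind pass the rule although they hold genes: 58 desert bins contained the start of an immunoglobulin or T cell receptor segment. The 2 lowest bins lay side by side among the variable segments of the T cell receptor alpha chain, 504.3 kb and more from Olfr1507, a gene for an olfactory receptor. The bin chr14:53100001-53200000 held 1532 young and 393 aged fragments, which gave a ratio of 0.332 (0.297 to 0.372), and the bin chr14:53000001-53100000 held 1807 and 533, a ratio of 0.382 (0.346 to 0.421). Without the highest window of each bin the ratios were 0.331 and 0.387, so the lower share did not rest on 1 element. The segments there have near-identical copies, between which the authors' alignment may split or discard reads. Over the 12 desert bins of this locus the ratio was 0.781 (0.758 to 0.804). The promoters of the T cell genes Cd3e and Cd3g, whose products form the T cell receptor complex, stood at 0.489 and 0.571 FPM in the young and 0.291 and 0.238 in the aged library, and the part of T cells in this difference was not tested.

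The immunoglobulin loci had ratios above 1, as most deserts did. The 19 desert bins of the heavy chain variable segments on chromosome 12 held 8162 young and 10210 aged fragments. This gave a ratio of 1.62 (1.57 to 1.67), and 14 of them were at least 25% higher. The 27 bins of the kappa light chain segments on chromosome 6 held 4181 and 4155, a ratio of 1.29 (1.23 to 1.34). Of these 27 bins, 14 were at least 25% higher. Among all desert bins compared 56.6% were, and the median desert had a ratio of 1.28, close to that of the kappa bins. The promoters of 3 B cell genes were together at 3.08 young and 2.35 aged FPM. Without all 58 bins the ratio of the deserts was 1.24. The other 3 of the lowest bins lay between Pot1a and Grm8 (chr6:26700001-26800000, 1811 and 809 fragments, ratio 0.579), between 5730507C01Rik and Gm21863 (chr12:19200001-19300000, 154 and 69, ratio 0.581) and between Slc30a5 and Pik3r1 (chr13:101300001-101400000, 580 and 265, ratio 0.592). Without their highest windows these 3 ratios were 0.570, 0.723 and 0.715.

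Cut sites outside the accessible elements had the higher ratio. The 1986 desert elements covered 595.7 kb, 0.136% of the desert sequence, at 4.54 elements per Mb against 79.4 per Mb elsewhere. They held 19.6% of the young and 18.2% of the aged cut sites of the deserts. Scaled to all autosomal cut sites, the ratio was 1.153 (1.148 to 1.158) within elements and 1.264 (1.261 to 1.266) outside them. The same split in the other bins gave 0.961 within elements and 1.05 outside. Intervals of ratios of cut sites, here and for single elements below, count each end of a fragment apart. They are thus too narrow. The 3466 desert bins without any element had a ratio of 1.310 (1.305 to 1.314), and the 910 with an element had 1.180 (1.176 to 1.185).

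As single features, 771 of the 1986 desert elements (38.8%) were at least 25% higher in the aged library, against 16.1% of all 157935 elements, and 225 (11.3%) were at least 20% lower, against 14%. Among 91180 elements elsewhere that lay over 1 kb from every annotated TSS these shares were 19.3% and 17.1%. The median log2 ratio of the desert elements was 0.18 (0.15 to 0.21), against -0.02 for these 91180. The median desert element stood at 1.59 young and 1.995 aged CPM, and its sequence had 45.0% G and C and 8.67% repeats, against 37.8% and 39.8% for a median desert bin. Only 133 of the 1986 lay within 1 kb of the TSS of a gene of any type.

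Desert elements with a level of at least 2 CPM together had a ratio of 1.109 (1.103 to 1.114). Among the few most accessible ones, which are named here, most had a lower level in the aged library. The highest lay 284.4 kb from Gata3 and 3742 bp from the start of the long noncoding RNA gene Gm13218, with 2750 young and 1901 aged cut sites, a ratio of 0.896 (0.845 to 0.9502). The element 268.6 kb from Klf6, a zinc finger transcription factor, had 2118 and 1520, a ratio of 0.930 (0.870 to 0.994). The element 313.1 kb from Ndufa4, a subunit of cytochrome c oxidase, had 2147 and 1489, a ratio of 0.899 (0.841 to 0.961). All 3 were cut in 1070 to 1356 young and 774 to 959 aged cells. The next 2, between Shisa9 and Ercc4 (chr16:12307401-12307700) and at the start of the noncoding gene Gm48607 beyond Trib2 (chr12:16185501-16185800), had ratios of 1.06 (0.983 to 1.13) and 0.796 (0.739 to 0.857).

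Some desert elements were cut almost only in aged cells. These 5 were chosen for their ratio among elements with at least 200 cut sites. They stood at 0.0204 to 0.275 CPM in the young library, so they reached the level of an element through the aged library. Their high ratios follow in part from this choice. The element between Tmem132b and Tmem132c had 2 cut sites from 1 young cell and 199 from 104 aged cells, a ratio of 129 with a counting interval from 35.2 to 1072. This interval counts the 2 ends of a fragment apart and is thus too narrow. The element between Agtr1b and Tbl1xr1 (chr3:21349501-21349800) had 6 cut sites from 5 young cells and 205 from 111 aged cells, a ratio of 44.3 (20.0 to 122). The elements between Rnf144b and Id4 (chr13:47707901-47708200), between Mctp2 and Rgma, and between Tmpo and Nedd1 (chr10:92325401-92325700) had ratios of 21.1, 20.1 and 13.7. No cell held more than 3 fragments at any of the 5, and the aged cells that held one were 104 to 189 of 3405. Whether these were the same cells was not tested.

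At the other end, chosen by ratio in the same way, stood the element between Gm11361 and Sox4. It had 216 young and 30 aged cut sites, a ratio of 0.180 (0.119 to 0.265). The element between Slc30a5 and Pik3r1 (chr13:101308751-101309050) had 310 and 62, a ratio of 0.259 (0.194 to 0.341). The other 3 of the lowest all lay at T cell receptor alpha segments, within 195 bp of the starts of Trav6n-6, Trav11n and Trav7n-4, with ratios of 0.327, 0.336 and 0.345.

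Regions that the study had listed as opening or closing with age, from bulk ATAC-seq of separate HSC samples, were counted by position. Of 425 opening regions in the bins used here, 47 lay in deserts (11.1%), and of 100 closing regions 0 did. Deserts made up 18.2% of bins but held 1.26% of all elements, and the listed regions are accessible sites like the elements. The 47 opening regions held 4664 young and 9401 aged fragments, which gave a ratio of 2.61 (2.52 to 2.71), and 45 of them were higher in the aged library. They made up 0.393% of the young and 0.827% of the aged desert fragments, and without them the ratio of the deserts was 1.24. Of the desert elements 51 (2.57%) overlapped an opening region, against 585 (0.370%) of all elements, and these 51 had a median log2 ratio of 1.597. The study listed such regions for opening with age, in deserts and elsewhere alike. No such ratios are given here for listed regions outside deserts, so none of this is shown to be particular to deserts. The most accessible of the 51 elements, between Tmem167 and Atp6ap1l (chr13:90515901-90516200), had 1307 and 1115 cut sites, a ratio of 1.11 (1.02 to 1.20). The next by level lay between Chst9 and Cdh2 (chr18:16273601-16273900), with 473 and 788 and a ratio of 2.16 (1.92 to 2.43), and between Sel1l and Flrt2 (chr12:92738001-92738300), with 521 and 589 and a ratio of 1.47 (1.3001 to 1.65). The element between Dsel and Cntnap5a had 227 and 718, a ratio of 4.10 (3.53 to 4.78). The element between Cntn5 and Jrkl (chr9:12496901-12497200) had 246 and 707, a ratio of 3.72 (3.22 to 4.32).

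**Figure D3:**
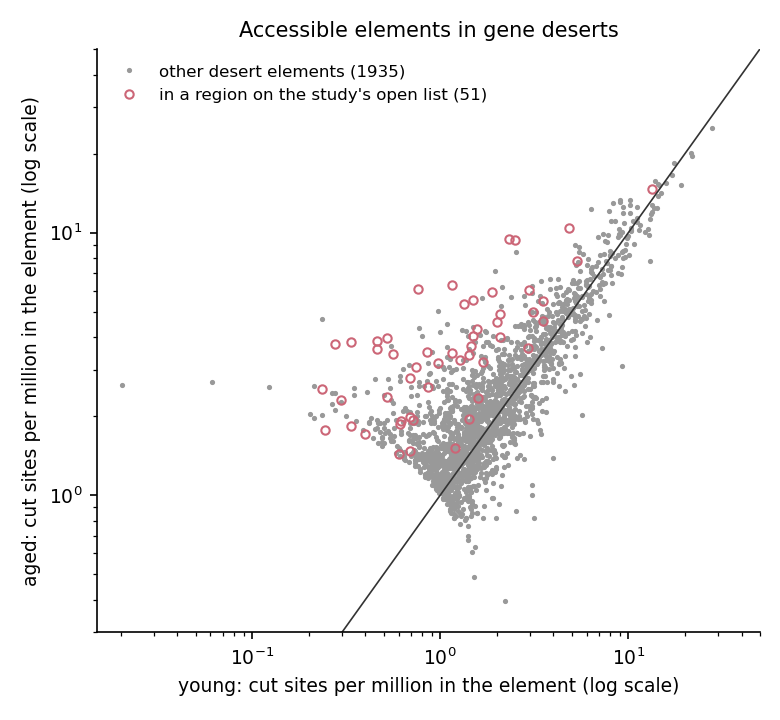
CPM in each of 1986 desert elements, young on the horizontal and aged on the vertical axis (both log scales), with the line of equal level. Circles are the 51 elements that overlap a region listed by the study as open in aged HSCs, nearly all above the line. Elements were chosen by the mean of both ages, which leaves the lower left corner empty.

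Motifs of 11 kinds were searched on both strands of the 1986 elements, and each share is given beside that in all 157935 elements of the same length. The letters were AGATAAG for GATA factors, TGTGGTT for RUNX factors, TGANTCA for AP-1, GAGGAAGT for PU.1, CCGGAAGT for other ETS factors, TGACGTCA for the CRE, TTCCNGGAA for STAT factors, GCTGAGTCA for CNC factors, TTGCNNAA for C/EBP, GAAANNGAA for the ISRE of interferon regulatory factors, and AGNNGGCGC or AGNNGGCAG for a core of CTCF. Every CNC match also contains an AP-1 match, and the PU.1 and ETS letters share their last 6 bases. RUNX letters were in 15.8% of desert elements and 9.35% of all elements, PU.1 letters in 9.52% and 5.59%, GATA letters in 6.24% and 3.82%, and AP-1 letters in 15.3% and 9.88%. C/EBP letters were in 17.1% and 11.1%, ISRE letters in 15.3% and 10.1%, CNC letters in 2.42% and 1.43% and STAT letters in 0.806% and 1.12%. ETS letters were in 0.403% and 1.36%, CRE letters in 0.252% and 0.740%, and CTCF letters in 17.1% and 20.2%. All elements include promoters. In elements outside the deserts and over 1 kb from every TSS the shares were 12.2% for RUNX, 7.29% for PU.1, 4.85% for GATA, 12.5% for AP-1, 12.5% for C/EBP, 11.7% for ISRE, 1.96% for CNC, 1.22% for STAT, 0.662% for ETS, 0.458% for CRE and 20.1% for CTCF letters. Against all elements, the desert elements were poorer in G and C (a median of 45.0% against 51.7%), whose part in these shares was not tested.

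By motif, the median log2 ratio of desert elements differed in size more than in direction. It was 0.48 (0.26 to 0.83) in the 48 elements with CNC letters, 0.32 (0.23 to 0.42) in the 303 with AP-1 letters and 0.25 (0.18 to 0.32) in the 339 with C/EBP letters. It was 0.08 (0.04 to 0.13) in the 340 with CTCF letters and 0.08 (0.01 to 0.16) in the 189 with PU.1 letters. Outside the deserts, elements over 1 kb from every TSS had medians of 0.13, 0.08, 0.00, -0.06 and -0.13 for the same 5 motifs in turn. Of the desert elements with CNC letters 62.5% were at least 25% higher, with AP-1 letters 49.5% and with C/EBP letters 44.5%. With PU.1 letters 33.3% were and with CTCF letters 30.3%, against 38.8% of all desert elements. Desert elements with the remaining motifs had medians of 0.31 (-0.10 to 1.04) for ETS letters (8 elements) and 0.24 for GATA letters. The medians were 0.22 for RUNX letters (313 elements) and 0.21 for ISRE letters (304 elements). They were 0.21 (0.07 to 0.45) for STAT letters, in only 16 elements, and 0.13 for CRE letters, in 5 elements, too few for an interval.

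Fragments were longer in deserts than in the rest of the genome. Fragments shorter than the DNA wrapped around 1 nucleosome come mostly from open DNA, fragments from that length up to that of 2 nucleosomes span 1 nucleosome, and longer ones span more. In the young library 42.3% of desert fragments were short and 47.6% spanned 1 nucleosome, against 60.3% and 31.2% elsewhere. In the aged library these were 40.04% and 48.1% in deserts, against 55.6% and 33.9% elsewhere. The median desert fragment was 163 bp long in young and 167 bp in aged HSCs, and elsewhere 93 and 110 bp.

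The deserts' share of each length class was higher in the aged library for all 3 classes. Of all short fragments, deserts held 1.71% in young and 2.18% in aged HSCs, a ratio of 1.28 (1.27 to 1.28). Of all fragments of 1 nucleosome they held 3.64% and 4.22%, a ratio of 1.16 (1.15 to 1.16). Of all longer fragments they held 2.87% and 3.36%, a ratio of 1.17 (1.16 to 1.18). This order depends on the scale. When every class was scaled to the in-peak fragments of the library instead of to its own class, the ratios were 1.20, 1.29 and 1.496, and the aged library as a whole had a smaller part of short fragments.

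**Figure D4:**
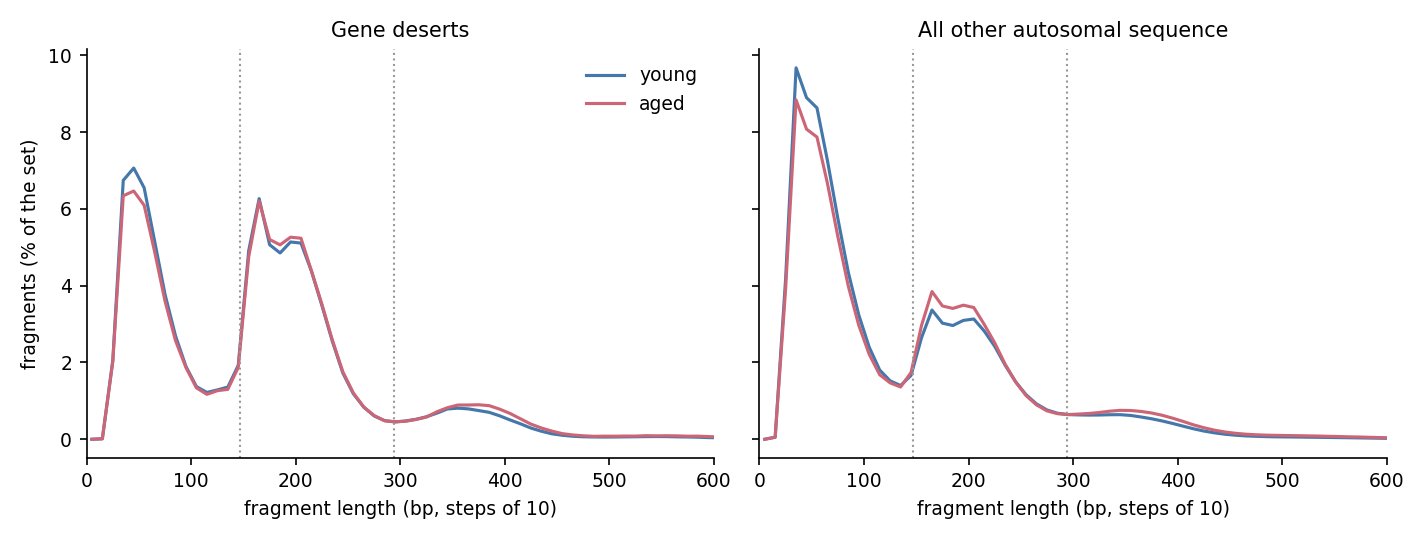
Fragment lengths in steps of 10 bp as the percentage of fragments in gene deserts (left) and in all other autosomal sequence (right), for the young and aged libraries, with dotted lines at the DNA lengths of 1 and 2 nucleosomes. In deserts the peak of 1 nucleosome holds about as much as the short peak, and elsewhere the short peak is much higher.

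Per cell, the higher desert share was spread over the aged library and not confined to a few cells. The share of a cell's autosomal fragments that lay in deserts had a median of 2.31% in the young library, with the middle 90% of cells from 1.78% to 3.23%. In the aged library the median was 2.89%, with the middle 90% from 2.24% to 3.85%. The ratio of the medians was 1.253 (1.24 to 1.27, by order statistics over cells). The libraries overlapped widely, and 92.95% of aged cells exceeded the median young cell (92.0% to 93.8%, exact binomial interval) while 23.9% lay above the 95th percentile of young cells. Doublets were not removed, and without the 5% of cells with the most fragments in each library the ratio of medians was 1.255.

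The desert share of a cell hardly varied with its depth, but was lower in cells with more of their fragments in peaks. With every cell thinned to 3000 autosomal fragments the median was 69 desert fragments per young cell and 87 per aged cell, and no cell was too shallow. At this equal depth 88.8% of aged cells exceeded the median young cell (87.7% to 89.8%), fewer than without thinning. In 4 classes of depth, with limits at 8000, 12000 and 16000 fragments, the ratio of medians was between 1.23 and 1.26. The rank correlation over cells of the desert share with depth was 0.024 in young and 0.032 in aged HSCs, and with the share of fragments in peaks it was -0.58 and -0.51. With the share of fragments at TSSs it was -0.46 and -0.42, and with the share of short fragments -0.39 and -0.40. These shares too were lower in the aged library, with medians per cell of 39.7% against 41.5% at TSSs and 54.9% against 60.1% short, and their part in the desert share was not tested. A fragment in a desert is seldom in a peak, so the values for peaks share a part with the desert share by construction.

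Within classes of in-peak share the aged cells still had the higher desert share. The peaks counted may differ between the libraries, so cells of 1 class need not be alike. For cells with 80% to 85% of fragments in peaks, 3017 young and 2082 aged cells, the medians were 2.32% and 2.81%, a ratio of 1.21. For cells under 75% they were 3.31% and 3.78%, a ratio of 1.14. For 75% to 80% they were 2.64% and 3.12%, a ratio of 1.18, and for 85% and over 2.06% and 2.40%, a ratio of 1.17. The ratio was thus smaller in each of the 4 classes than the 1.253 over all cells. Cells with more than 6% of fragments in deserts were rare, 13 young and 19 aged, and had a median of 49.4% and 43.9% of fragments in peaks. Fragments of barcodes that were not called as cells lay in deserts at 5.62% for the young sample and 9.95% for the aged one, and the part of such fragments in the shares of cells was not tested.

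**Figure D5:**
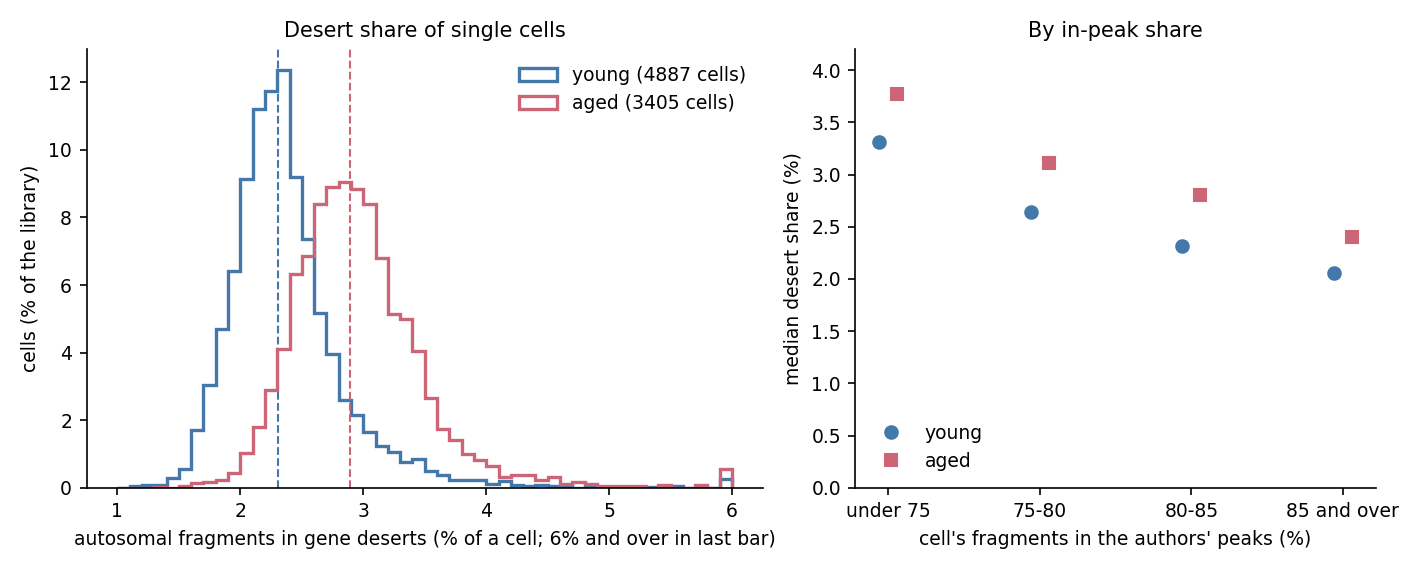
Left, percentage of each kept cell's autosomal fragments that lay in gene deserts, as the percentage of 4887 young and 3405 aged cells, with dashed lines at the medians of 2.31% and 2.89%. Right, median desert share within 4 classes of the cell's share of fragments in peaks, where the aged median was the higher one in each class.

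The genes at the edges of deserts differed less than the deserts. The promoters of 1043 genes that flank a desert had a median level of 7.77 young and 9.49 aged FPM, against 10.7 and 10.8 for all 20780 protein-coding promoters. Among the 872 flanking promoters with at least 20 fragments the median log2 ratio was 0.07 (0.03 to 0.09), and among 16084 promoters of genes that flank no desert it was -0.09 (-0.10 to -0.09).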

How the data were processed

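Per the labels, the authors made 1 single-cell ATAC-seq library each of young and aged HSCs, aligned to mm10 with Cell Ranger ATAC and analysed further with Signac. The deposited files hold 1 line per unique fragment, with the count of read pairs behind it, and a table of fragment counts per barcode. Called barcodes with 3000 to 20000 in-peak fragments (limits included) were kept, 4887 and 3405 cells. Each fragment was counted once at its midpoint, the columns of read pairs served no comparison, and shares were taken of autosomal fragments. TSSs, gene types and the GRCm38 sequence came from the GENCODE and RefSeq annotations supplied, whose coordinates held every fragment.

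The bin rule and all lists were chosen with earlier results of these data known. Named were the 5 longest deserts, the 5 highest and 5 lowest bins and elements by ratio (at least 200 fragments or cut sites), the 5 highest by level, deserts beside listed genes and up to 5 elements in regions listed by the study, and genes outside this rule are said to be so. A bin was called higher at a ratio of at least 1.25 and lower at 0.8 or under, with at least 20 fragments. Elements were 300-bp windows in steps of 50 bp, the highest first and none overlapping. Ratio intervals were conditional binomial (Clopper-Pearson) and medians had order-statistic intervals, all at 95%. With 1 library per age no test was made. The study's own region list was used for position and direction only. The code was tested on simulated data. Python 3.11.15, numpy 2.4.6, pandas 2.3.3, scipy 1.17.1, pyarrow 21.0.0 and matplotlib 3.10.9 were used.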

Additional observations from a re-analysis of the deposited data

Results flagged for a closer look

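Fragments of barcodes that were not called as cells are not part of the comparison between young and aged cells. Of their autosomal fragments 5.62% lay in gene deserts in the young library (5.59% to 5.64%, of 2888697 fragments), against 2.42% for kept cells. In the aged library 9.95% did (9.93% to 9.98%, of 5035775 fragments), against 3.01% for kept cells. These values were singled out because they lie in data outside the main measurement and above the limit that a count of 0 allows. The aged value was 1.77 times the young one, and 64.6% and 70.2% of these fragments were shorter than a nucleosome.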

How the results depend on the processing

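Of 115 values under alternatives, 63 stayed inside their main interval (or, for counts, within 1.5 times) and 52 moved beyond it. The counting intervals are too narrow, as said above, so a small move can pass them. Of the ratios and medians 0 reversed. The 11 counts of bins higher and 12 of bins lower have no direction and could not reverse. With bins over 500 kb from a TSS (2208 bins) the desert share ratio was 1.28, the median log2 ratio 0.39, bins higher and lower 1324 and 26, the per-cell ratio 1.29, short and mononucleosomal ratios 1.34 and 1.17, and element and outside ratios 1.19 and 1.29. With TSSs of all annotated transcripts (161 bins) they were 1.28, 0.38, 96, 1 and 1.28, then 1.34 and 1.18, with 1.31 outside elements. Scaling to in-peak fragments gave a share ratio of 1.27, a median of 0.41, length ratios of 1.20, 1.29 and 1.496, and 1.18 and 1.29 within and outside elements. Without the deepest 5% of cells these were 1.254, 0.39, 1.28, 1.17, 1.19 and, outside elements, 1.28. Thinned cells gave 1.249, 0.38, 166 bins lower, mononucleosomal and longer ratios of 1.16 and 1.19, and 1.17 and 1.27 within and outside elements. All called barcodes gave 1.14 within and 1.27 outside elements. A grid from 50 kb gave 1.24, a short ratio of 1.27 and 1.15 within elements. Length limits at 120 and 240 bp gave 1.15 and 1.22 for mononucleosomal and longer fragments. Element levels of 0.5 gave 1.20 within and 1.26 outside elements, and a level of 2 gave 1.11 within. Alternatives chosen after the data were seen gave, for cells with 80% to 85% of fragments in peaks, a share ratio of 1.21, per-cell 1.21 and outside elements 1.22, and for cells of 8000 to 12000 fragments 1.254 and 1.28. The cause of these moves was not tested, except that fewer bins were counted under the first 2 and shallower cells under thinning. No paired analysis was possible because each age had 1 library, and leaving out a replicate was not possible either. Depth limits single bins, and the spread between animals is unknown.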
